A study of Mus musculus with 8 samples.

Results

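Chemokine ligands are small secreted proteins that steer the movement of leukocytes and other cells through G protein-coupled receptors. All genes of the mouse whose symbol begins with Ccl or Cxcl and a number were taken, together with Xcl1 and Cx3cl1. They came to 39 genes of the 23523 features in the table, and each was measured in normal mouse brain (3 samples) and in glioblastomas (5 samples). The glioblastomas had been started with a lentiviral vector that carried HrasG12V, an activated Ras, together with a hairpin that knocks down p53. They were taken at the clinical endpoint, after GFP+ tumour had been separated from surrounding brain under a dissecting microscope. The labels give neither the promoter or target cell of the vector, nor the strain or age of the animals, nor the region of the normal brain. Nothing in them says whether each sample was a different mouse, and the p-values therefore cover the spread among these samples alone.

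The ligands are named for the spacing of their first cysteines, which are adjacent in CC ligands, parted by a single residue in CXC ligands and by a longer gap in the CX3C ligand Cx3cl1. Some, such as Cx3cl1, Cxcl12 and Cxcl14, are made constantly by healthy tissue and are called homeostatic. Others are made on demand by macrophages, glia, endothelium or tumour cells when NF-kB or interferon signalling is active. In brain tumours they are best known for drawing in monocytes, neutrophils and lymphocytes from the blood.

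The libraries held from 5490356 to 15564279 fragments. Hras, which the vector carried, was 4.15-fold higher in the tumours (log2 fold change 2.05 ± 0.19 SE; adjusted p = 1.9e-05 by edgeR) with no overlap, and Trp53, the target of the hairpin, was not called (-0.46 ± 0.35 SE; adjusted p = 0.262). Levels of a gene are given as fragments scaled to library size with TMM factors (CPM), and levels of different genes are compared only as FPKM, which allows for transcript length. Each gene was tested with edgeR's quasi-likelihood test over 14641 genes, and called at an adjusted p under 0.05. In pieces of tissue, a change in the number of cells that make a transcript and a change in the transcript per cell cannot be told apart.

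Of the 39 ligands, 21 were higher in glioblastoma, 4 were lower, 1 was tested and not called, and 13 had too few fragments to test. Over all tested genes 37.1% were called higher and 33.9% lower. Of the 26 ligands tested, 18 were above the limit of 1.32 CPM in fewer than 3 brains and so passed the filter through the tumours. Those 18 had to be higher if anything, and all of them were among the 21, so the count is a description and not a test of the family. Among all genes that passed in this way 79.2% were called higher. The other 8 ligands were above the limit in all 3 brains, and of them 3 (Ccl6, Ccl9 and Ccl25) were higher and 4 (Cx3cl1, Ccl27a, Cxcl12 and Cxcl14) lower, where genes above the limit in the brains were called higher in 31.6% and lower in 38.2% of cases. Brains and tumours were fully apart, without overlap, for 22 of the 26 ligands and for 70.6% of all tested genes. The filter itself favoured this for the 18 that passed through the tumours. The share over all genes is not matched to them, so this count is a description too. With a filter of 5 CPM in 3 samples, 18 ligands were tested, and 14 were called higher and 4 lower. Of the 12900 genes tested with that filter, 4891 were called higher and 4483 lower. That filter, too, can be passed through the tumours alone.

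**Figure D1:**
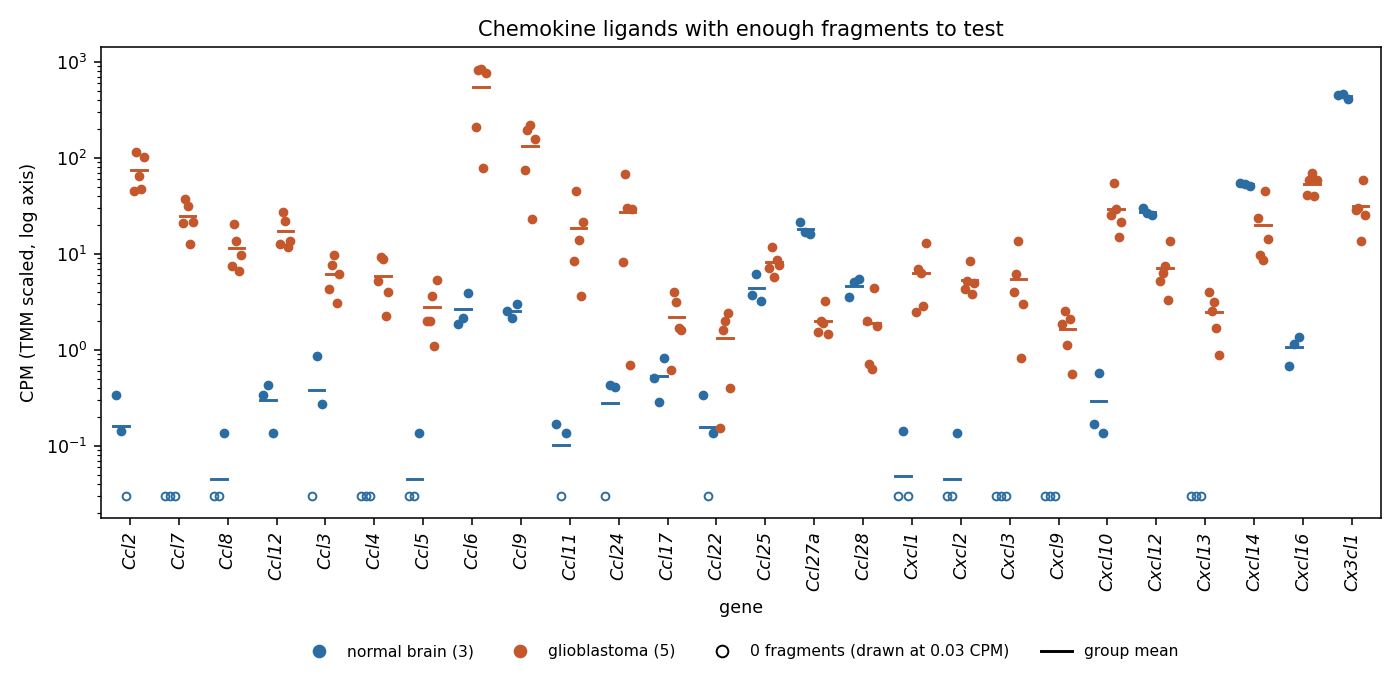
CPM of the 26 tested ligands on a log axis, with 1 point per library (blue, 3 normal brains; orange, 5 glioblastomas), a bar for each group mean and open circles for libraries with 0 fragments. The orange points lie above the blue ones for most genes from Ccl2 to Ccl24 and from Cxcl1 to Cxcl10, while Cx3cl1, Ccl27a, Cxcl12 and Cxcl14 lie lower in the tumours.

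The make-up of the family differed between the groups. The FPKM of all 39 ligands summed to 263 ± 14.5 (SD, n = 3) in brain and to 906 ± 464 (SD, n = 5) in the tumours. In brain, Cx3cl1 held 53.5%, 55.7% and 53.3% of that sum in brains 1, 2 and 3. Ccl27a held between 23.6% and 27.7% and Cxcl14 between 11.6% and 12.1%. The FPKM of Ccl27a is a sum over 4 RefSeq entries, and its level is uncertain for reasons given below. Its share and rank are therefore uncertain too. In the tumours Cx3cl1 held 1.87%, 0.697%, 0.364%, 5.36% and 0.749% in tumours 1 to 5. Ccl6 took its place at the top in 4 of the 5 tumours, with 32.4%, 45.8%, 54.1% and 53.4% in tumours 1, 2, 3 and 5. In tumour 4 Ccl6 held 17.1% and the monocyte attractant Ccl2 held 20.9%. CC ligands as a whole rose from 30.6% ± 1.36 (SD, n = 3) of the sum to 85.8% ± 7.63 (SD, n = 5), and the 2 ranges did not overlap. CXC ligands held 15.3% ± 0.355 in brain and 12.3% ± 5.60 in the tumours, with overlapping values. Their summed FPKM was higher in the tumours all the same, at 92.0 ± 19.7 (SD, n = 5) against 40.2 ± 1.41 (SD, n = 3), without overlap. By mean FPKM the 4 leading ligands of brain were Cx3cl1 (143), Ccl27a (67.4), Cxcl14 (30.9) and Cxcl12 (8.15), and those of the tumours were Ccl6 (418), Ccl2 (117), Ccl12 (49.2) and Ccl9 (45.2). None of the 4 is shared between the lists.

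**Figure D2:**
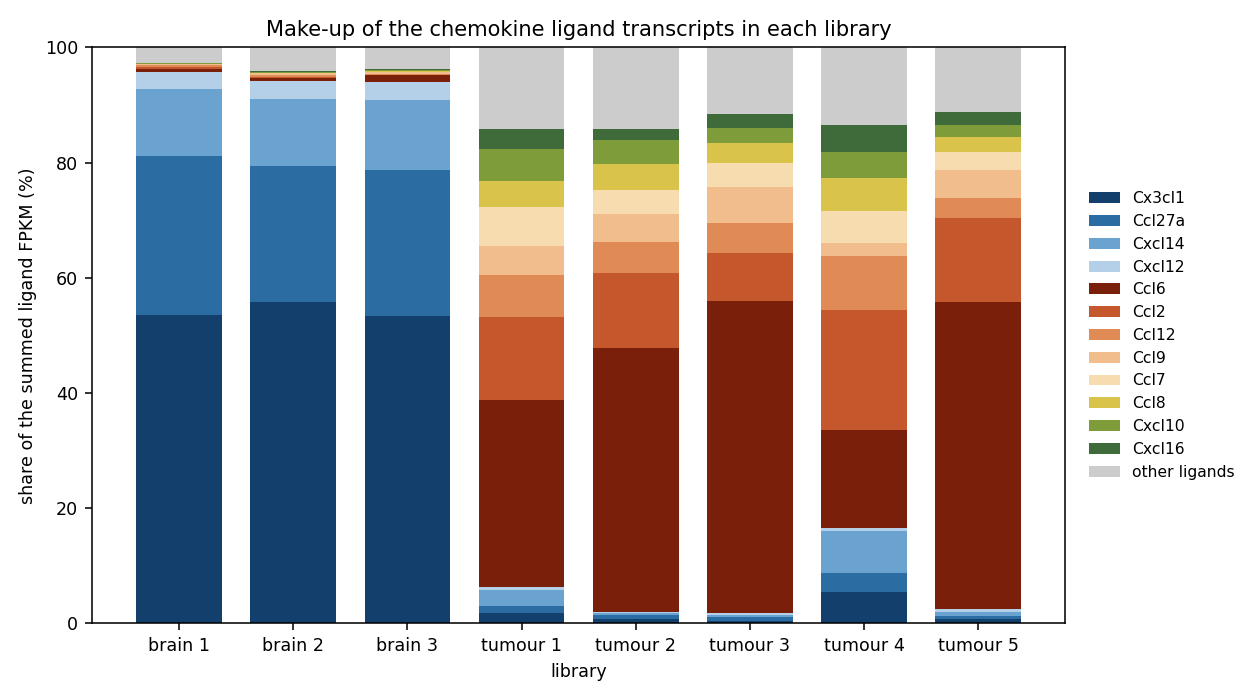
Share of the summed FPKM of all 39 ligands (percent) that each ligand holds in each library, as stacked bars. Cx3cl1, Ccl27a and Cxcl14 (blue shades) fill most of the 3 brain bars. The share of Ccl27a is uncertain. Ccl6 and Ccl2 (dark red and orange) are the largest single ligands of every tumour bar, and tumour 4 keeps the largest blue part of the 5.

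The ligands that were lower in glioblastoma were the abundant ones of normal brain. A ligand low in brain could hardly be called lower, so this is a description. Of all tested genes above the limit in fewer than 3 brains, 0.652% were called lower. Cx3cl1, or fractalkine, is made by neurons as a membrane-bound ligand of the microglial receptor Cx3cr1. It stood at 455, 467 and 407 CPM in brains 1 to 3 and at 28.7, 30.1, 13.6, 59.3 and 25.6 CPM in tumours 1 to 5. Every tumour lay far below every brain, and tumour 4 was the highest of the tumours. The fitted log2 fold change was -3.81 ± 0.39 (SE; adjusted p = 4.1e-05 by edgeR), a fall of 14.0-fold. The level rested on 8910 brain and 1795 tumour fragments, so counting error is small beside the spread between tumours. A list of 6 general neuronal genes, 5 of them called lower, summed to between 6816 and 7665 CPM in the brains and between 375 and 830 CPM in the tumours, with tumour 4 again highest. The part of this in the fall of Cx3cl1 was not tested.

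Ccl27a, a ligand of Ccr10 best known from skin, stood at 21.3, 17.0 and 16.1 CPM in the brains and at 1.55, 1.98, 1.89, 3.20 and 1.45 CPM in the tumours. The groups were far apart, and the log2 fold change was -3.13 ± 0.29 (SE; adjusted p = 2.1e-05 by edgeR). Exons of Ccl27a overlap those of Il11ra1 on the opposite strand in GENCODE. No source used here states how strand was treated in counting, so that fragments of the pair cannot be told apart. Il11ra1 itself was not called, at a log2 fold change of 0.11 ± 0.23 (SE; adjusted p = 0.674 by edgeR). Ccl27a has near-identical copies in the mouse, among them Ccl27b, which had 0 fragments in all 8 libraries. Its level is uncertain for that reason too.

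Cxcl12, which binds Cxcr4 and the scavenging receptor Ackr3 and guides stem cells and interneurons, stood at 29.9, 26.7 and 25.5 CPM in the brains. The tumours stood at 5.27, 6.31, 7.44, 3.32 and 13.6 CPM. All tumours were below all brains, and tumour 5 was the highest of them. This gave a log2 fold change of -1.92 ± 0.39 (SE; adjusted p = 0.0020 by edgeR). Cxcl14, an orphan chemokine made by some interneurons and by epithelia, varied more between tumours. It was even across the brains, at 54.5, 53.8 and 50.9 CPM, and stood at 23.7, 9.74, 8.70, 44.8 and 14.2 CPM in the tumours. Tumour 4 came close to the brains. The log2 fold change of Cxcl14 was -1.38 ± 0.50 (SE; adjusted p = 0.0333 by edgeR), and it was not called with scaling by library size only (adjusted p = 0.0719) or without any single library other than tumour 4 (adjusted p from 0.0523 to 0.0767). Ccl28, a mucosal ligand of Ccr10, was the ligand tested and not called. It stood at 3.55, 5.05 and 5.45 CPM in the brains and at 2.02, 0.722, 0.630, 4.37 and 1.78 CPM in the tumours, so the groups overlapped only through tumour 4. Its log2 fold change was -1.23 (95% interval -2.64 to 0.17; edgeR adjusted p = 0.0822), and without tumour 4 it was called lower at -1.81 (adjusted p = 0.0045). With all libraries, limma also called Ccl28 lower, on log2(FPKM + 1) (adjusted p = 0.0238) and on log2(FPKM + 0.1) (adjusted p = 0.0349).

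The ligands of Ccr2, which bring inflammatory monocytes out of the blood, were near 0 in brain and abundant in every tumour. Ccl2, the principal monocyte attractant, had 3 fragments in the brains, 2 in brain 1 and 1 in brain 2. It stood at 45.6, 116, 64.7, 47.5 and 102 CPM in tumours 1 to 5. The mean level in the tumours was 506 times that in the brains (95% counting interval 173 to 2451; edgeR adjusted p = 1.0e-05), or 1072 times without brain 1 and 322 times without brain 3. Ccl7, which lies beside Ccl2 and shares its receptor, had 0 fragments in the brains. Its tumour values were 20.9, 37.2, 31.9, 12.6 and 21.5 CPM, at least 167-fold above a floor of 3 fragments over the 3 brains (edgeR adjusted p = 5.6e-05). Ccl12, the closest mouse relative of Ccl2, had 6 fragments in the brains. It reached 12.7, 27.1, 22.1, 11.8 and 13.7 CPM in the tumours, with a log2 fold change of 5.80 ± 0.52 (SE; adjusted p = 1.8e-05 by edgeR). Ccl8, also a ligand of mouse Ccr8, had 1 fragment in brain 3 and none in the other brains. It stood at 7.45, 20.6, 13.5, 6.64 and 9.70 CPM in the tumours, 233 times the brain level (95% counting interval 41.9 to 9218; edgeR adjusted p = 5.7e-05). Tumour 2 held the highest value of all 4 genes and tumour 4 the lowest value of Ccl7, Ccl8 and Ccl12. Without brain 3 the floor for Ccl7 gave at least 106-fold and that for Ccl8 at least 49.5-fold, and without brain 2 the values were at least 110-fold for Ccl7 and 153 times for Ccl8.

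The inflammatory CC ligands of macrophages and activated T cells, most of which bind Ccr1, included Ccl6, the ligand with the highest FPKM in the tumours. Ccl6 and Ccl9 are rodent chemokines of myeloid cells. Ccl6 stood at 1.86, 2.16 and 3.95 CPM in the brains and at 209, 831, 849, 79.3 and 767 CPM in the tumours. The tumours fell into a high set (2, 3 and 5) and 2 lower ones, with tumour 4 lowest, and all lay above the brains. For Ccl6 the log2 fold change was 7.66 ± 1.04 (SE; adjusted p = 0.00021 by edgeR). Ccl9 showed the same order of tumours at the low end, with 2.54, 2.16 and 3.00 CPM in the brains and 74.8, 197, 219.7, 23.1 and 157 CPM in tumours 1 to 5. Its log2 fold change was 5.70 ± 0.83 (SE; adjusted p = 0.00030 by edgeR).

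Ccl3, Ccl4 and Ccl5 are the classical inflammatory ligands of this set, made by activated macrophages and microglia and, for Ccl5, also by T cells. They were lower in level than Ccl6 and Ccl9, at 9.88, 12.2 and 8.01 mean FPKM in the tumours. Ccl3 stood at 0, 0.866 and 0.273 CPM in the brains and at 4.34, 7.58, 9.70, 3.09 and 6.14 CPM in the tumours. The groups did not overlap, and the log2 fold change was 3.92 ± 0.76 (SE; adjusted p = 0.0015 by edgeR), or 5.25 without brain 2. Ccl4 had no fragment in the brains and stood at 5.27, 9.20, 8.95, 2.27 and 4.04 CPM in the tumours. That was at least 40.0-fold above the floor of 3 fragments over the brains (edgeR adjusted p = 0.00058), and at least 26.3-fold without brain 2 and 25.5-fold without brain 3. Ccl5 had 1 fragment, in brain 3, and averaged 2.82 ± 1.68 CPM (SD, n = 5) in the tumours, 56.9 times the brain level (95% counting interval 10.2 to 2247; edgeR adjusted p = 0.0011). It stood 37.3 times higher without brain 2 and at least 12.1-fold higher without brain 3. Of the 10 genes in the T and NK cell list, only 2 had enough fragments to test, and these 2 were called higher. The list summed to at most 1.35 CPM in the brains and to between 4.48 and 7.22 CPM in the tumours. Its members Cd3d, Cd3e, Cd8b1, Gzmb and Cd2 had 0 fragments in the brains, and its part in the level of Ccl5 was not tested.

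The eotaxins Ccl11 and Ccl24, ligands of the eosinophil receptor Ccr3, were higher, with a wide spread between tumours. Ccl11 had 2 fragments in the brains and stood at 8.53, 45.5, 14.0, 3.61 and 21.6 CPM in the tumours, 188 times the brain level (95% counting interval 52.1 to 1554; edgeR adjusted p = 0.00077). Without tumour 2, which was highest, the ratio was 120.5, and without brain 2 it was 123.5. Ccl24 stood at 0, 0.433 and 0.409 CPM in the brains and at 8.22, 68.4, 29.9, 0.699 and 29.6 CPM in the tumours. Tumour 4 was the nearest to the brains, and the highest tumour stood 97.9 times above it, the widest spread of the 21 ligands called higher. The log2 fold change of Ccl24 was 6.46 ± 1.61 (SE; adjusted p = 0.0063 by edgeR), or 5.80 without tumour 2. Ccl26, the other eotaxin gene and the next gene to Ccl24, had 0 fragments in all 8 libraries.

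The neutrophil-attracting CXC ligands of Cxcr2 were low but higher in the tumours. Cxcl1 had a single brain fragment (1, in brain 2), and it reached 2.48, 7.04, 6.30, 2.85 and 12.9 CPM in tumours 1 to 5. Tumour 5 held the highest value, and the tumour level was 127 times that of the brains (95% counting interval 22.9 to 5037; edgeR adjusted p = 0.00051). Cxcl2 had 1 fragment, in brain 3, and stood at 4.34, 5.23, 8.44, 3.84 and 4.93 CPM in the tumours, 108 times the brain level (95% counting interval 19.4 to 4270; edgeR adjusted p = 6.1e-05). Cxcl3 had 0 fragments in the brains and stood at 4.03, 6.13, 13.7, 0.815 and 2.99 CPM in the tumours, at least 37.3-fold above the floor (edgeR adjusted p = 0.0056). Tumour 3 was highest for both Cxcl2 and Cxcl3. Without the library that held its fragment, Cxcl1 was at least 27.9-fold and Cxcl2 at least 22.9-fold higher. Without brain 3 Cxcl1 stood 81.2 times higher, and without brain 2 Cxcl2 stood 71.0 times higher. Cxcl3 was at least 23.5-fold higher without tumour 3, 23.7-fold without brain 3 and 24.5-fold without brain 2. Cxcl5 had 5 brain and 53 tumour fragments. It was highest in tumours 1 and 4, at 2.17 and 1.51 CPM against 0.361, 0.378 and 0.646 CPM in tumours 2, 3 and 5, and had too few fragments to test. Cxcl15 had 0 fragments in all libraries. Of the 8 genes in the neutrophil list, 6 were tested and all 6 were called higher, Cxcr2 among them. That list summed to between 2.54 and 3.27 CPM in the brains and between 17.7 and 60.6 CPM in the tumours. Tumour 3 was highest and tumour 4 lowest. Mmp8 and Elane were at 0 in the brains and Mpo in the tumours, and the part of the list in the level of these ligands was not tested.

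Cxcl1, Cxcl2, Cxcl3 and the interferon-inducible Cxcl10 were all called higher and are textbook targets of NF-kB. The 250 bases before their annotated starts are therefore shown, with those of Cx3cl1 and Cxcl12, which fell. These genes were picked by hand, so the matches shown are a description and not a test. The sequences are from RefSeq (GRCm38.p6, not the build of the counts) and read 5′ to 3′ on the strand of the gene. Capitals mark matches on either strand to GGG and TTCC parted by any 3 bases, a loose form of the NF-kB site, or to GAAA and GAAA parted by any 2 bases, a loose form of the interferon-stimulated response element. A match on 1 strand can overlap a match on the other.
Cxcl1 promoter, chr5:90890995-90891244, plus strand: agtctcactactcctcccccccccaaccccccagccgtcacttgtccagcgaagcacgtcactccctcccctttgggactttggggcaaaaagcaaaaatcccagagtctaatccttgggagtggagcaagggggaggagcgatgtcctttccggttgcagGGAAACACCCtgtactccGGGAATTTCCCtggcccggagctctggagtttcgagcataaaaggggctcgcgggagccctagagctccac
Cxcl2 promoter, chr5:90903649-90903898, plus strand: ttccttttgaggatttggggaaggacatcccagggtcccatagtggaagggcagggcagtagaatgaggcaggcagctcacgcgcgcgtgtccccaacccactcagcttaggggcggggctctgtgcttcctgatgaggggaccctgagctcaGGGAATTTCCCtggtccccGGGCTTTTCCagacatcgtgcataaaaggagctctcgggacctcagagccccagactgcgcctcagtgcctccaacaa
Cxcl3 promoter, chr5:90785851-90786100, plus strand: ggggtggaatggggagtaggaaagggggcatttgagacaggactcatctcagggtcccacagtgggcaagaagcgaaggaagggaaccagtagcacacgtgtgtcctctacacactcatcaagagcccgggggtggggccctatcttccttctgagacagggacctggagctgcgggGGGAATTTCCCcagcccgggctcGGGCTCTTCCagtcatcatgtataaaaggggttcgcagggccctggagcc
Cxcl10 promoter, chr5:92348890-92349139, minus strand: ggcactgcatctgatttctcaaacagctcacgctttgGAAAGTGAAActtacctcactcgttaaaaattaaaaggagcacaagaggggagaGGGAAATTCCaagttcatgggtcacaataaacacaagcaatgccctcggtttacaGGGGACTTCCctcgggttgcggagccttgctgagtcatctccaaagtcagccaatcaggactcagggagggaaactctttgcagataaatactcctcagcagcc
Cx3cl1 promoter, chr8:94771930-94772179, plus strand: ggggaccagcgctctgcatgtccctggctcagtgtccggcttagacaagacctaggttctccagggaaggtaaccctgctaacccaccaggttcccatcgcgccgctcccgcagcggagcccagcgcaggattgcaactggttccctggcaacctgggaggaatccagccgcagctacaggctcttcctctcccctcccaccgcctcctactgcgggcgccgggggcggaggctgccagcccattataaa
Cxcl12 promoter, chr6:117168285-117168534, plus strand: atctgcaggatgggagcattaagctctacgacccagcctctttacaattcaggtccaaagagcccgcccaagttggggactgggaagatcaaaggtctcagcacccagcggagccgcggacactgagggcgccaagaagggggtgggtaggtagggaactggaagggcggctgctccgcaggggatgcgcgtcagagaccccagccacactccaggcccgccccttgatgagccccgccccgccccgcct
Cxcl1, Cxcl2 and Cxcl3 each held 2 runs of capitals, all of the NF-kB form, and in each the same 11 letters GGGAATTTCCC formed 1 of them. Cxcl10 held 2 runs of the NF-kB form and, farther from its start, 1 of the interferon form. The windows of Cx3cl1 and Cxcl12 held neither, but that of Cxcl14, also called lower and not shown, held the interferon form. Promoter sequences were found for 27 of the 39 ligands. The NF-kB form was present for 7 of these 27 (25.9%), against 5.31% of 27025 genes. It was present for 6.69% of all genes called higher and for 5.53% of all genes called lower. The 7 were 5 of the 14 ligands called higher for which a sequence was found (Ccl9 is the fifth) and the untested Ccl1 and Ccl20. None of the 4 called lower was among them. The interferon form was present for 3 of the 27, Cxcl10, Cxcl14 and the untested Ccl19, and for 3.46% of genes. A match is a string of letters and not a shown binding site.

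Of the CXC ligands that attract lymphocytes, Cxcl10 had the highest FPKM in the tumours. Cxcl10, a ligand of Cxcr3, stood at 0.169, 0.577 and 0.136 CPM in the brains and at 25.4, 55.02, 29.6, 15.0 and 21.5 CPM in the tumours. The groups were far apart, with tumour 2 highest and tumour 4 lowest, and the log2 fold change was 6.55 ± 0.67 (SE; adjusted p = 4.1e-05 by edgeR; 7.46 without brain 2). Exons of Cxcl10 overlap those of Art3 on the opposite strand. Art3 moved the other way, with a log2 fold change of -1.19 ± 0.43 (SE; adjusted p = 0.0340 by edgeR). The part of this overlap in the level of Cxcl10 was not tested. Cxcl9, the other Cxcr3 ligand with fragments in every tumour, had 0 in the brains and averaged 1.64 ± 0.783 CPM (SD, n = 5), at least 11.01-fold above the floor (edgeR adjusted p = 0.0022). Its tumour mean was 0.571 FPKM against 30.9 FPKM for Cxcl10. Cxcl11, annotated as a transcribed pseudogene in this reference, had 1 fragment in brain 1 and 5 in tumour 1. Cxcl13, a B cell attractant, had 0 fragments in the brains and averaged 2.46 ± 1.23 CPM (SD, n = 5) in the tumours, at least 16.5-fold above the floor (edgeR adjusted p = 0.0014). Without brain 3 these bounds fell to 7.01-fold for Cxcl9 and 10.5-fold for Cxcl13, and without brain 2 to 7.23-fold and 10.8-fold. Cxcl9 had too few fragments to test without tumour 1, tumour 2 or tumour 4.

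Cxcl16, a membrane-bound ligand of Cxcr6 and a scavenger receptor of macrophages, was the steadiest of the ligands called higher across the tumours. It stood at 0.677, 1.15 and 1.36 CPM in the brains and at 41.3, 59.4, 69.6, 39.7 and 58.9 CPM in the tumours, a spread of 1.75-fold between the highest and the lowest. This was a log2 fold change of 5.62 ± 0.34 (SE; adjusted p = 2.4e-06 by edgeR). Its exons overlap those of Zmynd15 on the opposite strand, which also rose. The tumour means were 0.791 FPKM for Zmynd15 and 22.5 FPKM for Cxcl16. The part of this overlap in the level of Cxcl16 was not tested.

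Calls for 3 other CC ligands were less firm. Ccl25, a thymic and gut ligand of Ccr9, stood at 3.72, 6.20 and 3.27 CPM in the brains and at 7.13, 11.7, 5.80, 8.73 and 7.68 CPM in the tumours. The groups overlapped through brain 2 and tumour 3, and the log2 fold change was 0.89 ± 0.32 (SE; adjusted p = 0.0330 by edgeR). It was not called with libraries thinned to 1 depth (adjusted p = 0.0842), without brain 1 (0.110), brain 3 (0.123) or tumour 2 (0.0595), and its exons overlap the far more abundant Elavl1 on the opposite strand (mean FPKM 26.4 in brain and 25.9 in the tumours). Ccl17 and Ccl22, which dendritic cells and macrophages make for Ccr4 on regulatory and helper T cells, were low. Ccl17 averaged 0.538 ± 0.266 CPM (SD) over the 3 brains and 2.21 ± 1.33 CPM (SD, n = 5) in the tumours (log2 fold change 1.98 ± 0.67 SE; adjusted p = 0.0260 by edgeR), and was not called with thinned libraries (0.0513), without brain 1 (0.0763) or without brain 2 (0.0977). Ccl22 had 3 fragments in the brains, and its tumour mean of 1.33 ± 1.005 CPM (SD, n = 5) was 8.94 times the brain level (95% counting interval 3.06 to 43.4; edgeR adjusted p = 0.0357). The ratio was 19.0 without brain 1 and 5.87 without brain 2. Ccl22 was not called with limma on log2(FPKM + 1) (0.0593), without brain 2 (0.111) or without brain 3 (0.103), and had too few fragments to test without tumour 2, 3 or 4. Tumour 1 was at the level of the brains for both genes.

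Of the 13 ligands that could not be tested, 7 had no fragment in any library. These were Ccl19, Ccl21a, Ccl21b, Ccl21c, Ccl26, Ccl27b and Cxcl15. Zero fragments allow a level of up to 0.149 CPM over the 3 brains and 0.0606 CPM over the 5 tumours, for counting error only. Ccl19 and the Ccl21 genes are the lymph node ligands of Ccr7. The Ccl21 genes are near-identical copies of each other, so their level is uncertain. The other 6 were Cxcl5, Cxcl11, Ccl20 (8 fragments, all in tumours), Ccl1 (4, in tumours 1 and 4), Xcl1 (4, all in tumour 4) and Cxcl17 (2, in tumours). In all, 16 ligands had no fragment in the brains, and 9 of these had at least 1 in the tumours. With every library thinned to the depth of the shallowest, 17 ligands had no fragment in the brains and 7 none in the tumours.

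Many ligand genes lie side by side. Most of those named here passed the filter through the tumours alone and had to be higher if anything, so the directions of neighbours are a description only. In the order of protein-coding genes on chromosome 11 of GRCm38.p6, Ccl2, Ccl7, Ccl11, Ccl12, Ccl8 and Ccl1 follow each other, and 5 of these 6 were higher while Ccl1 was not tested. The run of Ccl5, Ccl9, Ccl6, Ccl3 and Ccl4 on the same chromosome was higher in all 5. On chromosome 5, Cxcl5, Ppbp, Pf4, Cxcl3, Cxcl15, Cxcl1 and Cxcl2 form a run of 7 genes, of which 5 are members and 3 of those were higher. Ppbp and Pf4 are platelet CXC ligands whose symbols lie outside the rule. Pf4 averaged 0.736 ± 0.196 CPM (SD) across the 3 brains and 49.0 ± 39.1 CPM (SD) across the 5 tumours (log2 fold change 6.02 ± 0.96 SE; adjusted p = 0.00053 by edgeR). Ppbp had 1 fragment in the brains and a tumour mean of 10.3 ± 10.5 CPM (SD, n = 5; edgeR adjusted p = 0.0056). On chromosome 8, Cx3cl1, which fell, lies between Ccl22 and Ccl17, which were called higher.

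The receptors of these ligands were taken as the other genes of the pathway. Of 23 receptor genes, 11 were higher, 0 were lower by edgeR (0 at an unadjusted p under 0.05; 0 by DESeq2 and limma), 3 were tested and not called, and 9 had too few fragments to test. Of the 14 tested, 8 passed the filter only through the tumours, and these 8 were all called higher, as were 79.2% of all genes below the limit in at least 1 brain. Over all tested genes 37.1% were called higher and 33.9% lower. A stricter filter, 5 CPM in 3 samples, left 8 receptors tested and 6 called higher.

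**Figure D3:**
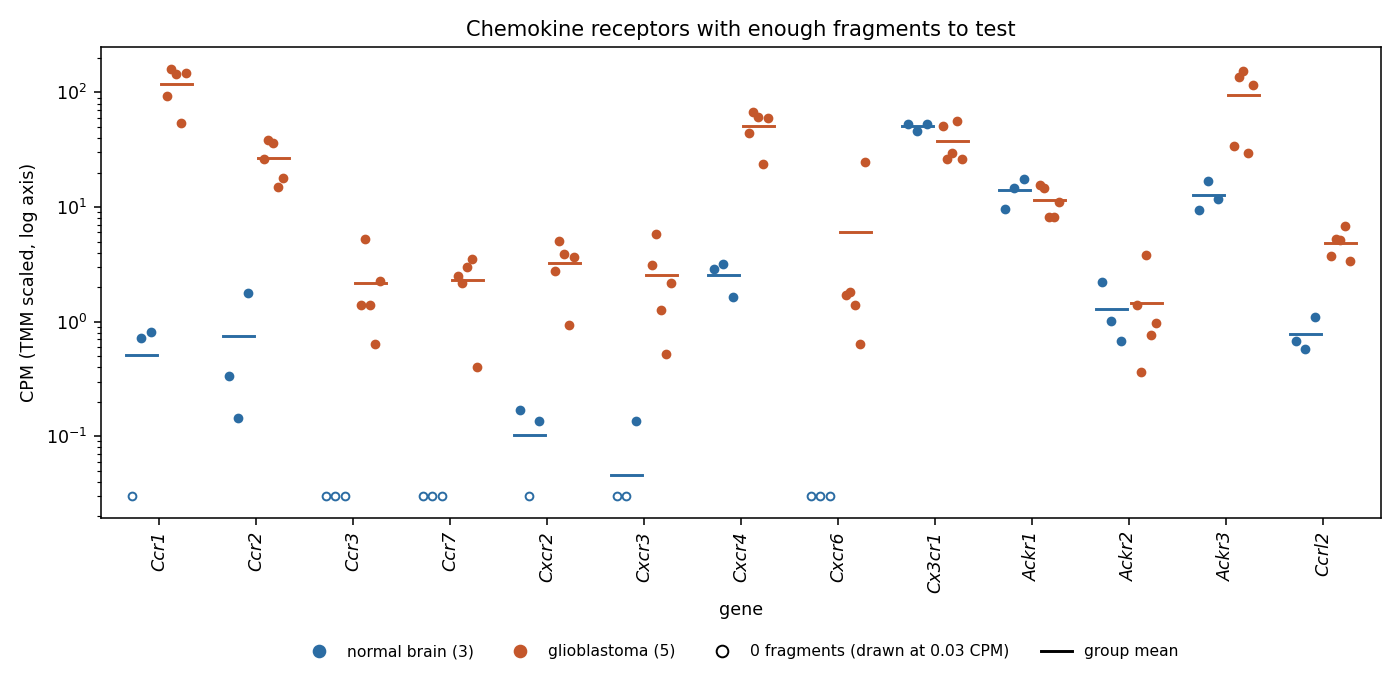
CPM of 13 tested chemokine receptors on a log axis, with 1 point per library (blue, 3 normal brains; orange, 5 glioblastomas), a bar for each group mean and open circles for 0 fragments. Ccr1, Ccr2, Cxcr4 and Ackr3 stand higher in every tumour than in any brain, Cx3cr1 and Ackr1 overlap, and tumour 5 stands alone for Cxcr6.

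Ccr1 and Ccr2, receptors of monocytes and macrophages, were higher in every tumour than in any brain. Ccr1, a receptor of Ccl3, Ccl5, Ccl6, Ccl7 and Ccl9, stood at 0, 0.721 and 0.818 CPM in the brains and at 92.9, 161, 144, 53.9 and 146 CPM in the tumours. The log2 fold change was 7.76 ± 0.70 (SE; adjusted p = 1.9e-05 by edgeR). Ccr2, the monocyte receptor of Ccl2, stood at 0.338, 0.144 and 1.77 CPM in the brains and at 26.1, 38.2, 35.9, 15.0 and 17.9 CPM in the tumours. Its log2 fold change was 5.07 ± 0.70 (SE; adjusted p = 0.00023 by edgeR; 6.74 without brain 3, which held most of its brain fragments). Tumour 4 was the lowest tumour for both of these receptors, as for Ccl6 and Ccl9.

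Cxcr4 and Ackr3 rose while their ligand Cxcl12 fell. Cxcr4, which signals, stood at 2.88, 3.17 and 1.64 CPM in the brains and at 44.5, 67.8, 61.5, 23.8 and 59.4 CPM in the tumours (log2 fold change 4.32 ± 0.44 SE; adjusted p = 3.7e-05 by edgeR). Ackr3, which takes up Cxcl12, stood at 9.47, 16.7 and 11.9 CPM in the brains and at 33.97, 137, 155, 29.4 and 117 CPM in the tumours (log2 fold change 2.89 ± 0.65 SE; adjusted p = 0.0036 by edgeR). In FPKM, Cxcl12 averaged 8.15 in brain against 1.504 for Cxcr4, and 3.06 in the tumours against 30.1 for Cxcr4.

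Cx3cr1, the microglial partner of Cx3cl1, was not called. It stood at 53.3, 45.9 and 53.0 CPM in the brains and at 50.7, 26.3, 29.5, 55.9 and 26.1 CPM in the tumours, with tumours 1 and 4 at the level of the brains. An exon of the gene model Gm33858 overlaps it on the opposite strand. The log2 fold change was -0.43 (95% interval -1.13 to 0.28; edgeR adjusted p = 0.212), and without tumour 4 it was called lower at -0.61 (adjusted p = 0.0457). The list of 6 microglia genes, 4 called higher and 2 lower, summed to between 267 and 281 CPM in the brains and between 348 and 499 CPM in the tumours, with tumours 4 and 1 highest. Its part in the level of Cx3cr1 was not tested.

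Cxcr6, the receptor of Cxcl16 on T and NK cell subsets, was far higher in 1 tumour than in the others. It had 0 fragments in the brains and stood at 1.71, 1.80, 1.39, 0.641 and 24.6 CPM in tumours 1 to 5. Tumour 5 alone held 305 of the 348 fragments. The tumour mean was at least 40.6-fold above the floor (edgeR adjusted p = 0.0313) and at least 9.31-fold without tumour 5 (adjusted p = 0.0035). Cxcl16 itself stood at 58.9 CPM in tumour 5, within the range of the others, and the T and NK cell list at 5.41 CPM, also within range. Without brain 1, 2 or 3 Cxcr6 was not called (adjusted p from 0.0602 to 0.0636), and the bound was 26.6-fold without brain 2 and 25.8-fold without brain 3. With all libraries, limma did not call Cxcr6 on log2(FPKM + 1) (adjusted p = 0.0900) but did on log2(FPKM + 0.1) (adjusted p = 0.0054).

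The other receptors called higher were low. Cxcr2, the neutrophil receptor of Cxcl1 and its relatives, averaged 3.26 ± 1.53 CPM (SD, n = 5) in the tumours, 32.9 times the brain level (95% counting interval 9.12 to 271.9; edgeR adjusted p = 0.0010), or 21.6 times without brain 2. Cxcr3, the receptor of Cxcl9 and Cxcl10, averaged 2.57 ± 2.04 CPM, 51.8 times the brain level (95% counting interval 9.30 to 2047; edgeR adjusted p = 0.0047), or 34.02 times without brain 2 and at least 10.99-fold without brain 3. It had too few fragments to test without tumour 1, 2 or 5. Ccr3, the eosinophil receptor, averaged 2.18 ± 1.80 CPM and was at least 14.7-fold above the floor (edgeR adjusted p = 0.0056). That bound was 9.64-fold without brain 2, 9.35-fold without brain 3 and 9.56-fold without tumour 2. Ccr7, the receptor of mature dendritic cells and naive T cells, averaged 2.31 ± 1.18 CPM and was at least 15.6-fold above the floor (edgeR adjusted p = 0.0035), or 10.2-fold without brain 2 and 9.91-fold without brain 3, while its ligands Ccl19 and Ccl21a to Ccl21c had no fragment. Ccrl2, which binds the attractant chemerin, rose from a brain mean of 0.781 ± 0.272 CPM (SD, n = 3) and reached 4.88 ± 1.39 CPM in the tumours (SD, n = 5; log2 fold change 2.61 ± 0.40 SE; adjusted p = 0.00039 by edgeR). Ackr1, a chemokine sink of venules and red cells, was not called, with 14.0 ± 4.02 CPM (SD) across the 3 brains and 11.5 ± 3.47 CPM (SD) across the 5 tumours (log2 fold change -0.29, 95% interval -1.03 to 0.44; edgeR adjusted p = 0.402). Its exons overlap those of Cadm3 on the same strand, and Cadm3 fell by 4.74 on the log2 scale. Ackr2, a sink of inflammatory CC ligands, was not called either, at 1.30 ± 0.798 and 1.45 ± 1.35 CPM (log2 fold change 0.17, 95% interval -1.64 to 1.99; edgeR adjusted p = 0.843). Ccr4, Ccr6, Ccr8, Ccr9, Ccr10, Cxcr1, Cxcr5, Xcr1 and Ackr4 had too few fragments to test.

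The ligands did not vary alike between tumours. Of the 21 ligands called higher, 14 (66.7%) had their lowest tumour value in tumour 4 and 11 (52.4%) had their highest in tumour 2. Of the 11 receptors called higher, 9 were lowest in tumour 4. Over all 5426 genes called higher, 56.7% were lowest in tumour 4 and 29.2% highest in tumour 2. The difference of the ligands from these shares was not tested. The 7 ligands not lowest in tumour 4 were Ccl2, Ccl17, Ccl22 and Cxcl1, lowest in tumour 1, Ccl25, lowest in tumour 3, and Cxcl9 and Cxcl13, lowest in tumour 5. Ccl22 was highest in tumour 4. Of the 4 ligands called lower, Cx3cl1, Ccl27a and Cxcl14 were highest in tumour 4, where 46.7% of all genes called lower were, and Cxcl12 was lowest there.

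**Figure D4:**
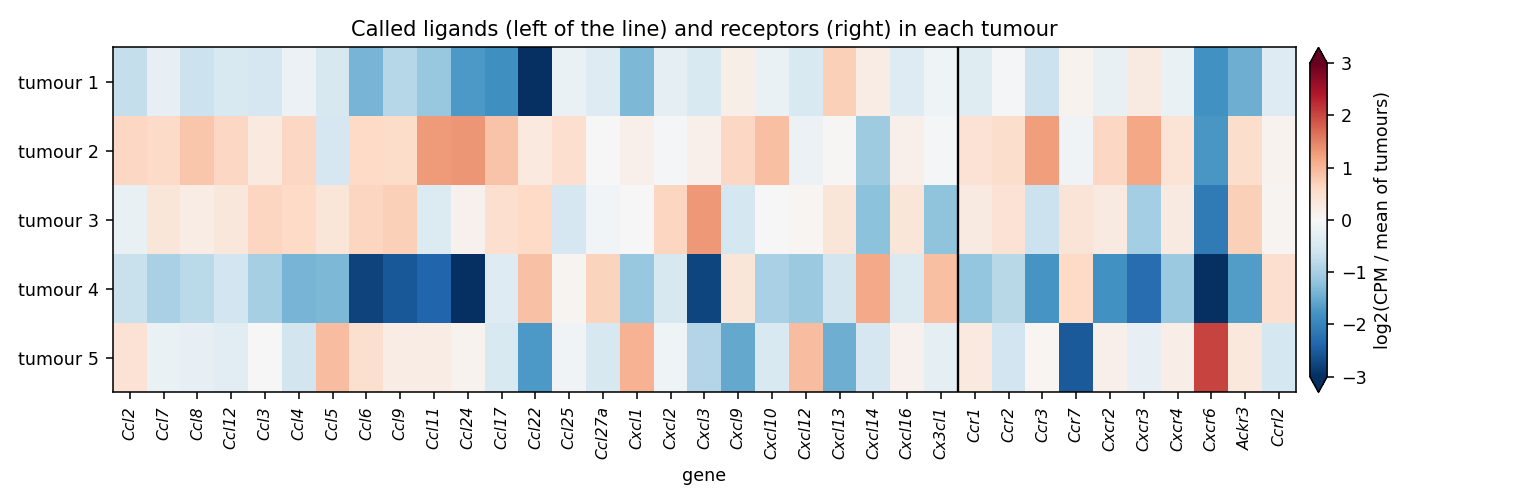
Each square is the log2 ratio of a tumour's CPM to the mean CPM of the 5 tumours, for the 25 called ligands (left of the line) and 10 receptors called higher (right). Tumour 4 is mostly blue (low) for the ligands that rose and red (high) for Cx3cl1, Ccl27a and Cxcl14, and tumour 5 is red for Cxcr6.

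Marker lists also differed between brains and tumours and from tumour to tumour, and not all in the same order of tumours. The list of 10 macrophage and monocyte genes, which includes Ccr2, was called higher in all 10 members. It summed to between 150 and 174 CPM in the brains and to 1310, 2661, 2995, 1189 and 2596 CPM in tumours 1 to 5, with no member at 0 in either group. Tumours 2, 3 and 5, with the higher sums, were also those with the higher levels of Ccl6, Ccl9, Ccl24, Ccr1 and Ackr3. Other called genes did not all follow that split. Ccr2, itself in the list, stood at 26.1 CPM in tumour 1 and 17.9 CPM in tumour 5. Cxcl10 stood at 25.4 and 21.5 CPM in the same tumours, and Ccl22 was highest in tumour 4. The endothelial list of 6 genes, 5 called higher, summed to between 89.9 and 107 CPM in the brains and between 219 and 414 CPM in the tumours. The platelet and megakaryocyte list of 4 genes, which includes Pf4 and Ppbp, summed to between 2.02 and 2.37 CPM in the brains and between 18.3 and 134 CPM in the tumours. Of the 5 genes in the dendritic cell list only 3 were tested, with 1 called higher and 1 lower. That list summed to between 18.3 and 24.0 CPM in the brains and between 38.0 and 88.8 CPM in the tumours. Xcr1 and Clec9a were at 0 in the brains. The astrocyte list of 5 genes, 3 called lower, fell from at least 3703 to at most 992 CPM, and the oligodendrocyte list of 5 genes, all called lower, from at least 2685 to at most 597 CPM. Among all genes tested, 37.1% were called higher and 33.9% lower. The part of any of these cell types in the levels of the ligands was not tested.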

How the data were processed

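RNA from 3 normal mouse brains and 5 glioblastomas was made into libraries with the TruSeq RNA kit after column extraction and DNase, per the labels' protocols. The submitters' processing notes name STAR 2.3.0e, Cuffdiff 2.1.1 and mm9. No source used here gives their roles, the annotation, the filters or the handling of strand. The authors deposited estimated counts of fragments and FPKM values, scaled between libraries, for each of 30967 RefSeq accessions, per the file headers. Symbols came from RefSeq (GRCm38.p6) for 30474 accessions and GENCODE for 178; 315 accessions without one held 0.507% of fragments. Values of all accessions with the same symbol were added and then rounded, giving 23523 features; of the ligands, only the sum for Cxcl11 was not whole (within 0.01) in some libraries. The main test was edgeR 4.0.16 (TMM, default filter, robust quasi-likelihood test, Benjamini-Hochberg over 14641 genes), tested on simulated data; DESeq2 1.42.0 and limma 3.58.1 (on log2 FPKM) were alternatives. Standard errors are the log2 fold change over the root of F, and intervals take 6 degrees of freedom. With 0 fragments in a group, folds are bounds against 3 fragments over the group; with 1 to 3, ratios carry an exact Poisson 95% interval. Both cover counting error only. R 4.3.3, pandas 2.3.3 and matplotlib 3.10.9 were used. Values per sample are given for ligands and receptors averaging 5 CPM or more in either group and for ligands called lower; most other tested genes are given by means. Counts of receptors include 1 that is not reported here by name. Genes and lists were chosen with earlier results of these data known. Alternatives were RLE factors, scaling by library size alone, a fit without the filter, a stricter filter (5 CPM in 3 samples), pseudocounts of 1 and 0.1, thinning to 5490356 fragments and leaving out each library.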

Additional observations from a re-analysis of the deposited data

Results flagged for a closer look

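Among the 40 tested ligands and receptors, 1 had a tumour far from the other 4 by Dixon's test. Cxcr6 stood at 24.6 CPM in tumour 5 and between 0.641 and 1.80 CPM in the other tumours. Chance flags about 1 in 20 such groups.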

How the results depend on the processing

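With every alternative, between 14 and 21 ligands were called higher and between 3 and 5 lower. Leaving out each library in turn gave 18 to 21 ligands higher and 3 to 5 lower, and 10 to 11 receptors higher. Of the 21 ligands called higher, 13 were called under all 16 alternatives, Ccl17, Ccl22 and Ccl25 lost the call in at least 1, and Ccl5, Cxcl2, Cxcl3, Cxcl9 and Cxcl13 were in some not tested. Of the 4 called lower, Cx3cl1, Ccl27a and Cxcl12 were called under all. Under the filter of 5 CPM in 3 samples 6 receptors were called higher, since fewer were tested. No receptor was lower (edgeR) except Cx3cr1, the 1 called without tumour 4; leaving out the others gave 0. Ackr2, not called, changed sign with limma on log2(FPKM + 0.1), to a log2 fold change of -0.060, and ranged from -0.13 (without brain 3) to 0.77 (without brain 1) with a library left out. DESeq2 called 21 ligands higher and 4 lower, and gave Cxcr6 no adjusted p. Ligands without a fragment were 17 to 19 in the brains when a brain was left out and 7 to 8 in the tumours when a tumour was. No paired analysis was possible because nothing ties a brain to a tumour: the numbers used here only name samples within a group. Depth limits the ligands with few fragments in brain, whose folds rest on 0 to 3 fragments.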
